A study of Homo sapiens with 6 samples.

Results

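The TMED genes encode the p24 proteins, cargo receptors of the early secretory pathway. A p24 protein crosses the membrane once, has a GOLD domain in the lumen and carries a short cytosolic tail that binds vesicle coats. The proteins assemble into mixed complexes of alpha, beta, gamma and delta subunits, leave the endoplasmic reticulum in COPII vesicles and return from the Golgi in COPI vesicles. They are known for the export of proteins with a glycosylphosphatidylinositol (GPI) anchor, and plasma cells, which secrete antibody at high rates, depend heavily on this pathway. The members are the 9 rows whose symbol is TMED1, TMED2, TMED3, TMED4, TMED5, TMED7, TMED8, TMED9 or TMED10, of 33095 genes in each of the 2 tables that the authors deposited. All 9 had an adjusted p in both tables, so no member was lost to a filter on low values. The family was selected on the log2 fold changes of both tables, which were known when it was chosen, above all that of TMED9, which had the lowest p-value of all 33095 genes in the shRNA 1 table. The members' fold changes and calls are therefore given as a description and carry no independent support.

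The cells were MM.1S, an established human line of multiple myeloma, a cancer of plasma cells. They were transduced with lentivirus carrying an anti-IRF3 shRNA 1, an anti-IRF3 shRNA 2 or a scrambled hairpin, with 2 libraries of poly(A)-selected RNA in each of the 3 groups. IRF3 switches on interferon genes when sensors of foreign nucleic acid or some Toll-like receptors are engaged. Values per library are not among the data used here, which leaves their depths unknown. Whether the 2 libraries of a group came from separate cultures is not stated in the labels, and p-values then measure only the spread between these samples, which may be technical. The mean normalised read counts sum to 25062897 over all genes. The plasma cell genes SDC1, IRF4, XBP1, PRDM1, TNFRSF17, CD38 and JCHAIN had means of 1670 to 31500 normalised reads, while the B cell markers MS4A1 and PAX5 had 3.82 and 9.51 and the B cell marker CR2 had 1020. The T cell markers CD3E and CD3G had 57.1 and 8.06, and the monocyte markers CD14, LYZ and CSF1R 5.1 to 14. The targeted gene IRF3 stood at -1.53 ± 0.10 with shRNA 1, where a fall was called, and at -0.18 ± 0.10 (SE) with shRNA 2, where none was, as log2 fold changes in the authors' deposited tables. The second hairpin's group is therefore called the libraries labelled shRNA 2 below.

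The promoters of TMED2 and TMED10 are shown because these encode the partner beta and delta subunits, and both were called lower across the libraries labelled shRNA 2. The stretches run up to the first annotated exon of each gene and come from RefSeq (GRCh38.p14). That of TMED2 lies at chr12:123584302-123584530 on the plus strand and that of TMED10 at chr14:75176632-75176862 on the minus strand. Capitals mark a CCAAT box in TMED2, 73 bases before the RefSeq start, and an E-box (CACGTG) in TMED10, 30 bases before it.
TMED2: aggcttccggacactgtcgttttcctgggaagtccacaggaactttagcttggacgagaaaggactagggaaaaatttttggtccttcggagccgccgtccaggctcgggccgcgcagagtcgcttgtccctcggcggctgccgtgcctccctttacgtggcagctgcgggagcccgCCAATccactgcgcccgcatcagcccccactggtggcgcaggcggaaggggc
TMED10: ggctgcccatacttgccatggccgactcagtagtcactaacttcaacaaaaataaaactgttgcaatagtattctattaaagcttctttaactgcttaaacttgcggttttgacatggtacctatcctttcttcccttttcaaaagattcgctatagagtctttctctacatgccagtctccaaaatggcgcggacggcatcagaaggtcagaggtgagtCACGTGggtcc

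The promoter table has an entry for 7 of the 9 members and none for TMED4 and TMED9. The 250 bases before each RefSeq start were searched on both strands. CACGTG, bound by MYC, USF and related factors, was found in 1 member, TMED10, and in 6.34% of 35116 promoters. CCAAT was found in TMED1, TMED2, TMED5 and TMED7, and in 32.0% of all promoters. The unfolded protein response elements TGACGTGG (in 0.612% of all promoters) and CCAAT followed after 9 bases by CCACG (in 0.074%) were found in no member with an entry, and neither was the pair of GAAA blocks with 2 bases between them (in 3.02%) that IRF proteins bind. The element with CCACG begins with CCAAT, so each of its matches also counts as a CCAAT match. The matches describe only the letters of these windows. The GC content of the 250 bases was 64.8% in TMED2 and 46.4% in TMED10, against a median of 58.0% over all promoters.

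In the scramble cells TMED9 was the most abundant member per length of transcript. Levels are given as group means reconstructed from the authors' mean and both fold changes, divided by the length of the principal GENCODE 29 transcript. Per kilobase, TMED9 had 802 reads with shRNA 1, 3191 in the libraries labelled shRNA 2 and 3508 with scramble. TMED4 had 1411 reads per kilobase with shRNA 1, 1593 in the libraries labelled shRNA 2 and 1188 with scramble. TMED9 therefore stood at 0.569 times the level of TMED4 per kilobase with shRNA 1, at 2.00 times in the libraries labelled shRNA 2 and at 2.95 times with scramble. Of the summed per-kilobase level of all 9 members, TMED9 held 14.1% with shRNA 1, 40.8% in the libraries labelled shRNA 2 and 40.3% with scramble. The order per kilobase in scramble cells ran TMED9, TMED4, TMED2, TMED3, TMED10, TMED1, TMED7, TMED5 and TMED8. The neighbours TMED2 and TMED3, at 1031 and 1019 reads per kilobase in scramble cells, did not differ beyond their error, since the undivided means were 2639 ± 119 and 1503 ± 80.3 (SE). Nor did TMED10 and TMED1, at 670 and 607, with undivided means of 2763 ± 143 and 814 ± 64.0 (SE). The order of TMED7 and TMED5, at 321 and 276, is not clear either (undivided 1207 ± 70.2 and 1685 ± 92.2, SE). With shRNA 1 TMED9 ranked behind TMED4 and TMED2. TMED5 and TMED8 have long principal transcripts (6.10 and 7.78 kilobases), and their per-kilobase levels of 276 and 74.3 with scramble would be higher if shorter transcripts dominate.

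**Figure D1:**
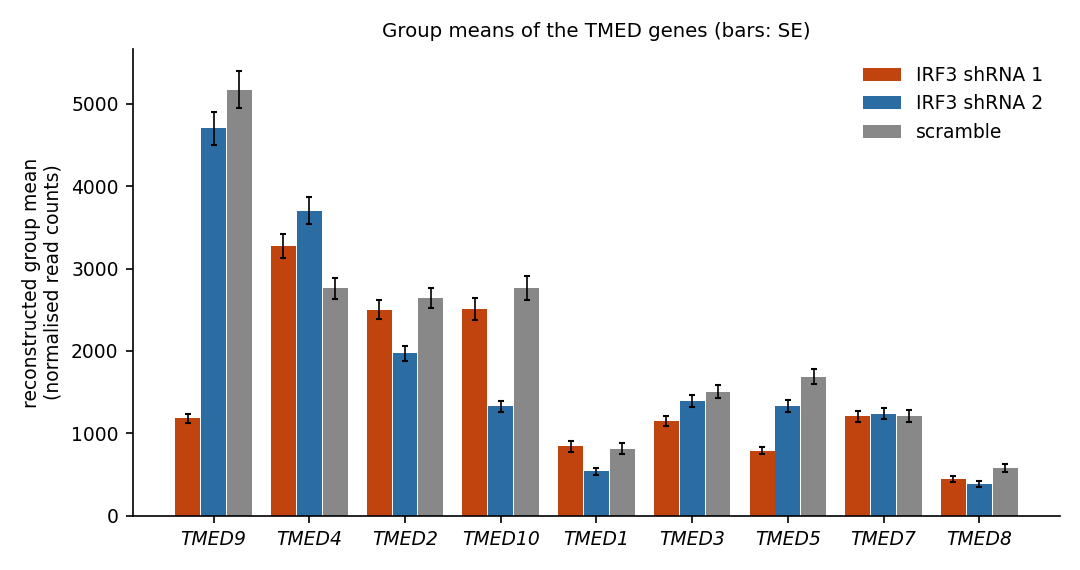
Reconstructed group means of the 9 TMED genes in normalised read counts (vertical axis, not divided by length). IRF3 shRNA 1, IRF3 shRNA 2 and scramble stand side by side. Error bars are the SE of the reconstructed mean for 2 libraries. It uses a reconstructed dispersion shared by the 3 groups, not the spread within each group. TMED9 stands at 1182 with shRNA 1, against 5168 with scramble, while TMED10 is lowest, at 1326, in the libraries labelled shRNA 2.

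With shRNA 1, 3 of the 9 members were called lower (TMED9, TMED5 and TMED3), 1 was called higher (TMED4) and 5 were not called at an adjusted p below 0.05 in the authors' deposited table. Over all 14488 genes with an adjusted p, 14.8% were called lower and 9.8% higher. Among the 7853 genes with a mean at least that of TMED8, the least abundant member, these shares were 21.8% and 13.3%. The median log2 fold change was -0.14 over the members and -0.03 over all genes tested. In the libraries labelled shRNA 2, 5 members were called lower (TMED10, TMED1, TMED8, TMED2 and TMED5), 1 higher (TMED4) and 3 were not called in the authors' deposited table. There, 18.1% of 17054 genes were called lower and 10.9% higher, while 28.2% and 15.4% were so called among genes at least as abundant as TMED8. The median was -0.34 over the members and -0.0026 over all genes tested. TMED5 was called lower and TMED4 higher in both tables, which share the scramble libraries, and TMED7 was called in neither. The family choice used these contrasts, so nothing is read from the counts beside their background.

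Summed over the 9 members, the reconstructed means came to 13893 normalised reads with shRNA 1 and 16580 in the libraries labelled shRNA 2, against 19116 with scramble. The ratio to scramble was 0.727 with shRNA 1 and 0.867 in the libraries labelled shRNA 2. Without TMED9 these ratios were 0.911 with shRNA 1 and 0.852 in the libraries labelled shRNA 2. Without TMED10 they were 0.696 with shRNA 1 and 0.933 in the libraries labelled shRNA 2. Of the net gap to scramble in these undivided sums, TMED9 made up 76.3% with shRNA 1 and 18.4% in the libraries labelled shRNA 2. TMED10 made up 4.92% of that gap with shRNA 1 and 56.6% in the libraries labelled shRNA 2. In bulk RNA, fewer transcripts in every cell and a change in the mixture of cells cannot be told apart.

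**Figure D2:**
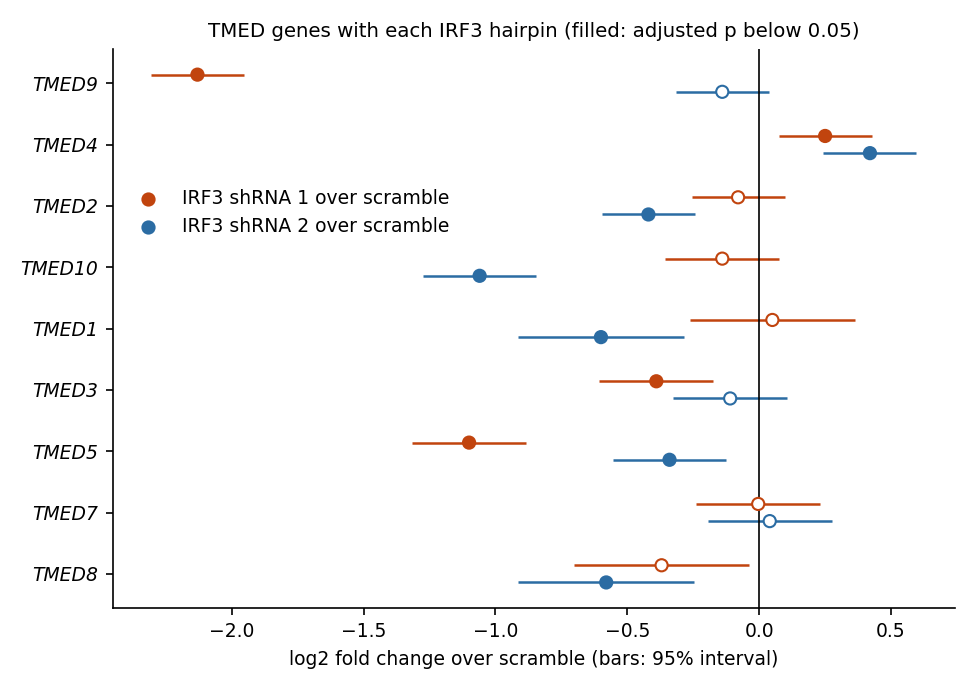
Log2 fold changes over scramble (horizontal axis) of the 9 TMED genes with IRF3 shRNA 1 and IRF3 shRNA 2, with 95% intervals; filled points have an adjusted p below 0.05 in the authors' deposited tables. TMED9 lies at -2.13 with shRNA 1 and -0.14 with shRNA 2, TMED10 at -0.14 with shRNA 1 and -1.06 with shRNA 2.

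The alpha subunits TMED9 and TMED4 went in opposite directions with shRNA 1. TMED9 retains misfolded membrane proteins in the early secretory pathway and recycles with COPI. The gene (ENSG00000184840) lies on chromosome 5 from 177592158 to 177596124 on the plus strand (GRCh38), with 5 exons in its principal transcript, and no other annotated gene overlaps it. Its reconstructed mean was 1182 ± 55.5 (SE) normalised reads with shRNA 1 and 4701 ± 204 in the libraries labelled shRNA 2, against 5168 ± 224 with scramble. The log2 fold change in the authors' deposited table was -2.13 ± 0.09 (SE) with shRNA 1, which is 0.229 times scramble (95% interval 0.202 to 0.259). In the libraries labelled shRNA 2 it was -0.14 ± 0.09 per the authors' deposited table, or 0.910 times scramble (95% interval 0.807 to 1.03). TMED4, the other alpha subunit (chromosome 7, 44577894 to 44582287, minus strand), had 3276 reconstructed reads with shRNA 1 and 3700 in the libraries labelled shRNA 2, against 2759 with scramble. Its log2 fold changes were 0.25 ± 0.09 with shRNA 1 and 0.42 ± 0.09 (SE) with shRNA 2 from the authors' deposited tables. The call with shRNA 1 was lost at an adjusted p below 0.01 and without the filter on low genes.

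The beta subunit TMED2 and the delta subunit TMED10 bind each other and are the pair needed for export of GPI-anchored proteins. TMED2 also binds STING, a sensor upstream of IRF3, and TMED10 modulates gamma-secretase. TMED10 (chromosome 14, 75131470 to 75176631, minus strand) had 2506 reconstructed reads with shRNA 1 and 1326 in the libraries labelled shRNA 2, against 2763 with scramble. In the authors' deposited tables its log2 fold change was -0.14 ± 0.11 with shRNA 1 and -1.06 ± 0.11 (SE) with shRNA 2, ratios of 0.907 (0.785 to 1.05) and 0.480 (0.415 to 0.556). TMED2 (chromosome 12, 123584531 to 123598577, plus strand) had 2501 reads with shRNA 1 and 1972 in the libraries labelled shRNA 2, against 2639 with scramble. Its log2 fold change in the authors' deposited tables was -0.08 ± 0.09 with shRNA 1 and -0.42 ± 0.09 (SE) with shRNA 2. Both partners were thus called lower across the libraries labelled shRNA 2 and called in neither direction with shRNA 1. The call of TMED2 in the libraries labelled shRNA 2 was lost with a minimum log2 fold change of 0.5. The pseudogene TMED10P1 had a mean of 0.877 normalised reads, against 2198 for TMED10.

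The gamma subunits did not share one pattern. TMED5, needed for the ribbon form of the Golgi (chromosome 1, 93149742 to 93180728, minus strand), had 788 reconstructed reads with shRNA 1 and 1328 in the libraries labelled shRNA 2, against 1685 with scramble. In the authors' deposited tables its log2 fold change was -1.10 ± 0.11 with shRNA 1, a ratio of 0.468, and -0.34 ± 0.11 (SE) with shRNA 2, a ratio of 0.788. It was the second largest fall in the family with shRNA 1. The call in the libraries labelled shRNA 2 was lost at an adjusted p below 0.01. TMED3 (chromosome 15, 79311062 to 79427432, plus strand) had log2 fold changes of -0.39 ± 0.11 with shRNA 1 and -0.11 ± 0.11 (SE) with shRNA 2 per the authors' deposited tables, and was called with shRNA 1. TMED1, which binds the interleukin-33 receptor ST2 (chromosome 19, 10832438 to 10836318, minus strand), was at 0.05 ± 0.16 with shRNA 1 and at -0.60 ± 0.16 (SE) with shRNA 2 on the log2 scale of the authors' deposited tables, and was called lower with shRNA 2. TMED1 and TMED5 each overlap a gene on the opposite strand, DNM2 (mean 4720 normalised reads) and CCDC18 (mean 197), and whether strand was used in counting is not stated in the labels. Opposite-strand genes also overlap TMED2 (AC055713.1, mean 188) and TMED10 (AL049780.2, mean 2.09). The same holds for TMED7 (AC010226.1, mean 16.1) and TMED8 (SAMD15, mean 7.27, and AC007954.1, mean 0.875).

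TMED7, the gamma subunit that carries the receptor TLR4 to the surface (chromosome 5, 115613508 to 115632992, minus strand), was the member that moved least. Its reconstructed means were 1204 with shRNA 1 and 1240 in the libraries labelled shRNA 2, against 1207 with scramble. The ratio to scramble was 0.997 with shRNA 1 (95% interval 0.849 to 1.17) and 1.03 in the libraries labelled shRNA 2 (0.875 to 1.21), from the authors' deposited tables. A read-through transcript of the same locus, TMED7-TICAM2, encodes a protein that dampens signalling from TLR4 to IRF3. With a mean of 70.0 normalised reads its log2 fold changes were 1.2 ± 0.58 with shRNA 1 and 0.70 ± 0.58 (SE) with shRNA 2 per the authors' deposited tables, and it was called in neither. Reads from exons that TMED7 and the read-through share cannot be assigned with certainty. TICAM2 itself had a mean of 57.4 and was called in neither table.

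TMED8 carries a GOLD domain but is not placed in the alpha to delta subfamilies. It lies on chromosome 14 (77335021 to 77377109, minus strand) and was the least abundant member, with 446 reconstructed reads with shRNA 1 and 387 in the libraries labelled shRNA 2, against 578 with scramble. Its log2 fold changes were -0.37 ± 0.17 with shRNA 1 and -0.58 ± 0.17 (SE) with shRNA 2 per the authors' deposited tables, and it was called with shRNA 2. TMED6, the remaining gamma subunit of the genome and not among the 9 members, had a mean of 24.5 normalised reads, with 95% intervals of its ratio to scramble from 0.435 to 2.62 with shRNA 1 and from 0.514 to 3.04 with shRNA 2, from the authors' deposited tables.

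Set against each other, the hairpins differed for most members. The difference of the log2 fold changes, shRNA 2 minus shRNA 1, was computed with an SE that takes the shared scramble libraries into account. It was 1.99 ± 0.09 (SE) for TMED9 and 0.75 ± 0.12 for TMED5, both higher across the libraries labelled shRNA 2 than with shRNA 1. It was -0.92 ± 0.11 (SE) for TMED10, -0.65 ± 0.16 for TMED1 and -0.34 ± 0.09 for TMED2, all lower across the libraries labelled shRNA 2 than with shRNA 1. TMED3 differed by 0.27 ± 0.11 (SE), a difference no longer called with independent SEs. For TMED7 the 95% interval of the difference ran from -0.19 to 0.28, for TMED8 from -0.54 to 0.13 and for TMED4 from -0.001 to 0.35, which leaves differences of those sizes possible. In all, 6 of 9 members passed an adjusted p below 0.05 in a two-sided z test, beside 43.7% of the 12977 genes averaging at least 50 reads. That share is the background, and nothing is read from the members' count.

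**Figure D3:**
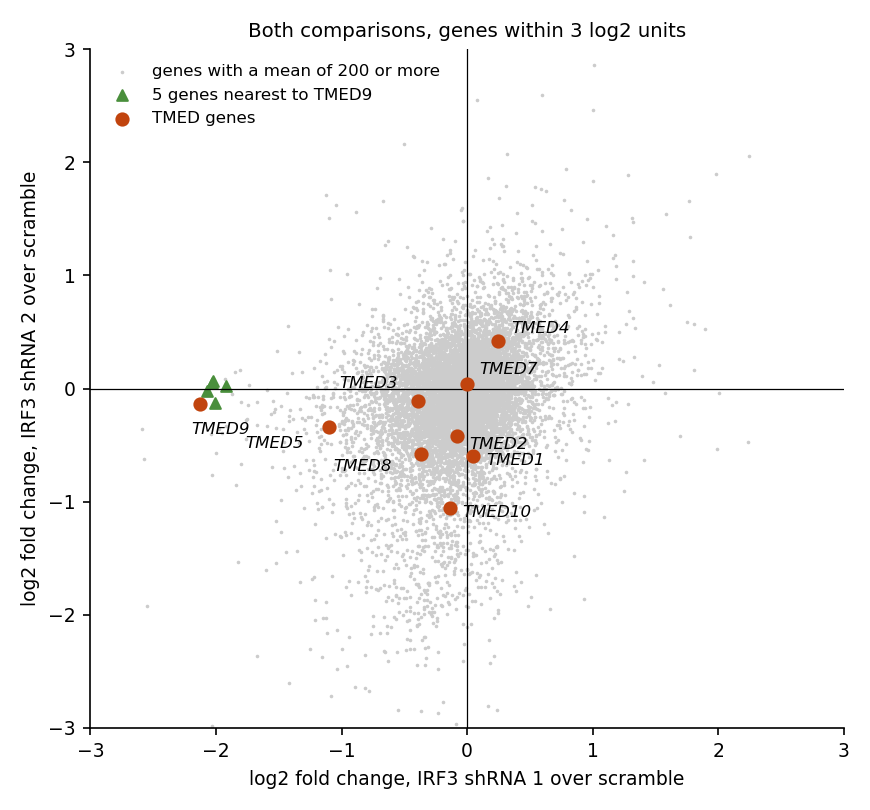
Log2 fold changes over scramble with IRF3 shRNA 1 (horizontal) and IRF3 shRNA 2 (vertical) for 10158 genes averaging at least 200 reads, with the TMED genes and the 5 genes nearest to TMED9 marked; 7 genes beyond 3 log2 units are not drawn. TMED9 lies at -2.13 on the horizontal and -0.14 on the vertical axis, TMED10 at -0.14 and -1.06.

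Other genes had the pattern of TMED9. Likeness was the Euclidean distance over the 2 log2 fold changes, among 9654 genes with a mean of 200 or more and a unique symbol (immunoglobulin segments and pseudogenes left out), and it rests on 2 comparisons with shared controls. The nearest gene was HOMER3, a postsynaptic scaffold protein, at -2.01 ± 0.11 with shRNA 1 and -0.13 ± 0.11 (SE) with shRNA 2 per the authors' deposited tables, a distance of 0.12. TRIM44 (distance 0.13), NOP10, a component of H/ACA small nucleolar ribonucleoproteins (0.20), LRP10, a receptor of the LDL receptor family (0.24), and ASNA1, the ATPase that inserts tail-anchored proteins into the endoplasmic reticulum (0.26), followed. With shRNA 1, 188 of the ranked genes were called lower with a log2 fold change of -1 or less. Of these, 80 were not called in the libraries labelled shRNA 2, as TMED9 was not, 99 were called lower there and 9 higher. Over all tested genes, 18.1% were called lower and 10.9% higher in those libraries. Among genes at least as abundant as TMED8 these shares were 28.2% and 15.4%, so most genes were not called there. Both comparisons share the scramble libraries, and nothing is read from the 80.

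The genes around TMED9 on chromosome 5 were lower with shRNA 1 in part. Of the 3 nearest tested protein-coding genes on each side, which span 649 kilobases, DOK3 was at -0.90 ± 0.15, DDX41 at -0.36 ± 0.13 and FAM193B at -0.32 ± 0.11 (SE) with shRNA 1 per the authors' deposited table, all called lower. B4GALT7, a xylosylprotein galactosyltransferase and the closest gene downstream, was at 0.06 ± 0.15 (SE) and was not called in the authors' deposited table. Beyond it, N4BP3 was at -0.14 ± 0.17 and not called, and RMND5B at -0.40 ± 0.11 (SE) and called lower in the authors' deposited table. No neighbour came near the fall of TMED9. With shRNA 1, 14.8% of all tested genes were called lower, and 21.8% of those at least as abundant as TMED8. Whether the neighbours moved together with TMED9 was not tested. In the libraries labelled shRNA 2, N4BP3 was called higher (0.63 ± 0.17) and RMND5B lower (-0.29 ± 0.11, SE) in the authors' deposited table.

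The question of whether the machinery that p24 proteins work with moved too was addressed with 10 lists of 130 genes. Of the 116 tested with shRNA 1, 20 were called lower and 20 higher, 17.2% each, with a median log2 fold change of 0.01, from the authors' deposited table. Of the 119 tested in the libraries labelled shRNA 2, 25 were called lower (21.0%) and 8 higher (6.72%), with a median of -0.13. The shares over all genes were those given above, 14.8% lower and 9.8% higher with shRNA 1, and 18.1% and 10.9% in the libraries labelled shRNA 2. Among genes at least as abundant as TMED8 they were 21.8% lower and 13.3% higher with shRNA 1. In the libraries labelled shRNA 2 they were 28.2% and 15.4% there. The lists also hold genes less abundant than TMED8.

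Genes of the COPI coat, which binds the tails of p24 proteins and carries them back from the Golgi, counted 2 higher and 0 lower of 8 tested with shRNA 1, with a median of 0.15. COPZ1 was at 0.47 ± 0.10 and COPB2 at 0.22 ± 0.09 (SE) per the authors' deposited table. In the libraries labelled shRNA 2, 3 of 9 were called lower and 0 higher, with a median of -0.13. These were the 2 forms of the gamma subunit, COPG1 at -1.07 ± 0.10 and COPG2 at -0.77 ± 0.16, and COPE at -0.43 ± 0.09 (SE) per the authors' deposited table. They are named because of that count, after their values were seen. Of 8 genes of the ARF cycle, which recruits the coat, 1 was lower and 3 higher with shRNA 1 (median 0.11), and 2 lower and 0 higher across the libraries labelled shRNA 2 (median -0.07). ARF1, the GTPase for which TMED10 is a Golgi receptor, was lower with both, at -0.75 ± 0.08 with shRNA 1 and -0.40 ± 0.08 (SE) with shRNA 2 per the authors' deposited tables. ARF4 and ARF5 were called higher with shRNA 1, at 0.39 ± 0.13 and 0.41 ± 0.09 (SE) per the authors' deposited table.

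Of 17 genes of the COPII coat and its exit sites, 4 were lower and 0 higher with shRNA 1 (median -0.01), and 2 lower and 1 higher across the libraries labelled shRNA 2 (median -0.07). SEC24A, a cargo-binding subunit, was at -0.42 ± 0.11 with shRNA 1 and -0.49 ± 0.11 (SE) with shRNA 2 per the authors' deposited tables. PREB, the exchange factor of the COPII GTPase, was at -0.46 ± 0.09 with shRNA 1, where it was called, and at -0.18 ± 0.09 (SE) with shRNA 2, where it was not, in the authors' deposited tables. Cargo receptors outside the p24 family were lower in 2 and higher in 3 of 14 cases with shRNA 1 (median -0.06), and lower in 3 and higher in 1 of 15 in the libraries labelled shRNA 2 (median -0.13). The lectin LMAN2L was called higher in both, at 0.68 ± 0.12 with shRNA 1 and 0.57 ± 0.12 (SE) with shRNA 2, and ERGIC1 lower in both, at -0.22 ± 0.07 and -0.32 ± 0.07, in the authors' deposited tables.

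The retrieval receptors return escaped proteins to the endoplasmic reticulum, the direction in which COPI carries p24 proteins too. Of 3 tested with shRNA 1, 1 was lower and 1 higher (median 0.0025), and of 4 tested in the libraries labelled shRNA 2, 2 were lower and 0 higher (median -0.30). KDELR2 was called in opposite directions, at 0.42 ± 0.10 with shRNA 1 and -0.27 ± 0.10 (SE) with shRNA 2 per the authors' deposited tables. KDELR1 was at 0.0025 ± 0.09 with shRNA 1 and fell to -0.72 ± 0.10 (SE) in the libraries labelled shRNA 2, per the authors' deposited tables.

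GPI anchors are the mark on the cargo best known for its need of p24 proteins. Of 23 tested genes of GPI anchor synthesis and transfer, 4 were lower and 2 higher with shRNA 1 (median 0.02), and 6 lower and 2 higher across the libraries labelled shRNA 2 (median -0.22). PIGX, PIGU and PIGO were called lower in both tables and PIGQ higher in both. These were picked by a rule that favours genes called in both tables. It left out PIGS, called lower with shRNA 1 only. PIGS was at -1.20 ± 0.11 with shRNA 1 and at 0.01 ± 0.11 (SE) with shRNA 2 per the authors' deposited tables. PIGX, of the first mannosyltransferase, was at -1.05 ± 0.14 with shRNA 1 and -0.67 ± 0.14 (SE) with shRNA 2 per the authors' deposited tables. PIGU, a subunit of the transamidase that attaches the anchor, was at -0.63 ± 0.16 with shRNA 1 and -0.94 ± 0.16 (SE) with shRNA 2 per the authors' deposited tables. Of 5 tested genes of anchor remodelling, 0 were lower and 2 higher with shRNA 1 (median -0.13). Across the libraries labelled shRNA 2, 1 was lower and 0 higher (median -0.19). Transcripts of the GPI-anchored proteins themselves counted 4 higher and 0 lower of 13 tested with shRNA 1 (median 0.19), and higher in 1 and lower in 3 of 13 in the libraries labelled shRNA 2 (median -0.05). The prion protein PRNP was called higher in both, at 0.39 ± 0.09 with shRNA 1 and 0.62 ± 0.09 (SE) with shRNA 2, and the antiviral tether BST2 higher with shRNA 1 only, at 0.26 ± 0.08, in the authors' deposited tables.

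**Figure D4:**
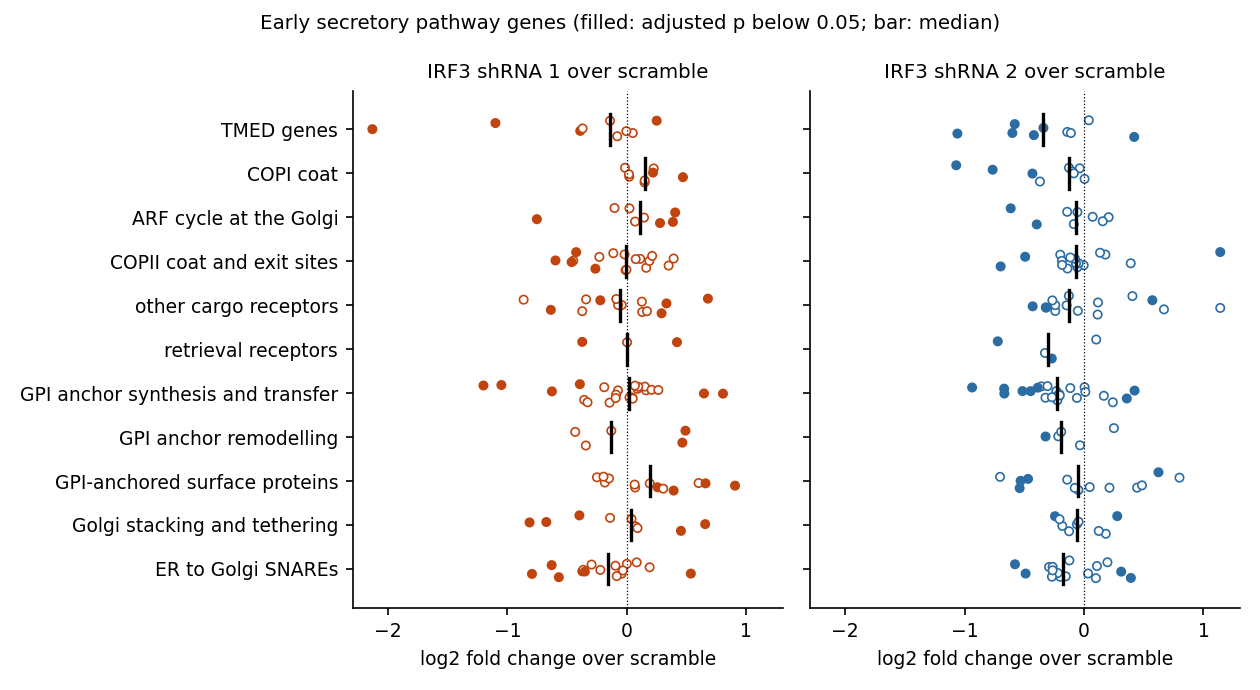
Log2 fold changes over scramble (horizontal axes) of the TMED genes and of each tested gene of 10 early secretory lists with IRF3 shRNA 1 (left) and IRF3 shRNA 2 (right); filled points have an adjusted p below 0.05 and black bars are medians. The COPI coat median is 0.15 with shRNA 1 and -0.13 with shRNA 2.

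Golgi stacking and tethering genes were lower in 3 and higher in 2 of 9 cases with shRNA 1 (median 0.04), and lower in 1 and higher in 1 across the libraries labelled shRNA 2 (median -0.06). RAB1A, the GTPase of transport into the Golgi, was called in opposite directions, at 0.66 ± 0.10 with shRNA 1 and -0.24 ± 0.10 (SE) with shRNA 2 per the authors' deposited tables. GORASP1, a Golgi stacking protein that binds p24 tails, was at -0.67 ± 0.15 with shRNA 1, where it was called, and at 0.18 ± 0.15 (SE) with shRNA 2, where it was not, in the authors' deposited tables. Of 16 genes of SNARE-mediated fusion between these compartments, 5 were lower and 1 higher with shRNA 1 (median -0.16), and 2 lower and 2 higher across the libraries labelled shRNA 2 (median -0.18). NAPA, the adaptor that recycles SNAREs, was called lower with shRNA 1, at -0.35 ± 0.10, and higher across the libraries labelled shRNA 2, at 0.39 ± 0.10 (SE), in the authors' deposited tables. SEC22C was called lower in both.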

How the data were processed

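RNA sequencing of 6 libraries was grouped by the shRNA in the labels. Salmon 0.12.0, DESeq2 1.24.0 and GRCh38 are named in the submitters' processing notes; for settings, transcript annotation and strand, the sources used here give nothing. The authors deposited 2 tables. Their mean is a signal in normalised read counts over the fitted libraries, per the file headers. The authors' deposited log2 fold changes and SEs are on the log2 scale, coded shRNA over scramble. The deposited Wald score equals the log2 fold change over its SE to within 3.27e-07, and the p-values are the authors' own. The main test of each comparison is the authors' DESeq2 result at an adjusted p below 0.05 over all genes with one (14488 and 17054). Values per library are not among the data used here, and no count test was run.

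Group means, dispersion and the SE of the hairpin difference were reconstructed from the identical means and both fold changes and SEs. Python 3.11.15, pandas 2.3.3 and scipy 1.17.1 were used. A check on simulated data built its SEs with the same formula. It therefore checked the code only, and could not show whether the formula suits the deposited values. As a check of coding, dispersions solved from each table differed by a median of 0.00597 (absolute log ratio) with the signs as coded, against 0.0512 to 0.163 with signs turned. The difference was tested by a two-sided z with Benjamini-Hochberg adjustment over 12977 genes with a mean of 50 or more.

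All 33095 gene identifiers occur in GENCODE 29 (GRCh38). Members, lists and the rule for named genes were chosen with earlier results of these data known. Besides the members and IRF3, the rule took up to 4 genes per list with the lowest larger adjusted p. It also took the 5 genes nearest to TMED9 and 3 neighbours on each side. Genes that overlap a member, the pseudogene TMED10P1 and the read-through are named too. So are COPG1, COPG2 and COPE, chosen after their values were seen. The list rule favours genes called in both comparisons. It passed over PIGS, USO1 (-0.81 ± 0.10) and STX5 (-0.79 ± 0.13), called lower with shRNA 1 only. SEC31B (1.14 ± 0.14), called higher with shRNA 2 only, was passed over too (log2 fold changes ± SE of the authors' deposited tables). One B cell marker is not reported here.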

Additional observations from a re-analysis of the deposited data

Results flagged for a closer look

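The results below are those whose change differed between the hairpins in the two-sided z test (adjusted p below 0.05), given as shRNA 2 minus shRNA 1 on the log2 scale. Of the 12977 genes averaging at least 50 reads, 43.7% passed that test, so passing it is common in these data. Among the members, whose values were known when the family was chosen, the differences were 1.99 for TMED9, 0.75 for TMED5, 0.27 for TMED3, -0.34 for TMED2, -0.65 for TMED1 and -0.92 for TMED10.

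Of 39 genes of the lists that the rule named, 23 differed. The rule picked them by their adjusted p in the same comparisons. The count therefore cannot be set beside the share over all genes, and nothing is read from it. Lower in the libraries labelled shRNA 2 than with shRNA 1 were the COPI subunits COPA (-0.28), COPB1 (-0.26), COPB2 (-0.32) and COPZ1 (-0.56) and the ARF genes ARF4 (-0.53) and ARF5 (-0.25), whereas ARF1 differed by 0.36. The COPII genes SEC13 and PREB differed by -0.41 and 0.28. Among receptors the difference was -0.57 for LMAN1, -0.69 for KDELR2, -0.72 for KDELR1 and 0.48 for RER1. Among GPI anchor genes it was 0.38 for PIGX, -0.27 for PIGO, -0.29 for PIGQ and -0.71 for PGAP3. The GPI-anchored proteins PRNP and BST2 differed by 0.23 and -0.40. At the Golgi the difference was -0.90 for RAB1A, -0.66 for RAB1B, 0.86 for GORASP1 and 0.74 for NAPA. KDELR2, RAB1A and NAPA were the 3 named genes that the authors' deposited tables call in opposite directions. The causes of these differences were not tested.

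Of 18 other genes named in the text, 14 differed. The COPI subunits COPG1, COPG2 and COPE, named after their values were seen, differed by -1.09, -0.75 and -0.45. The targeted gene IRF3 differed by 1.35. The genes nearest to TMED9, whose choice used these same fold changes, differed by 1.89 for HOMER3, 2.05 for TRIM44, 2.08 for NOP10, 2.09 for LRP10 and 1.94 for ASNA1. Of the neighbours of TMED9, DOK3 differed by 1.15, DDX41 by 0.56, FAM193B by 0.40, B4GALT7 by -0.35 and N4BP3 by 0.77.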

How the results depend on the processing

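No paired analysis was possible because the deposited tables hold no value of a single library, and for the same reason no library could be left out in turn. Over genes averaging at least 50 reads, the median log2 fold change came to -0.04 with either hairpin. Recentring on it left each member's call as it was, and turned the direction of TMED7 with shRNA 1, which was not called, to 0.04. Of the counts recomputed under other settings, 9 moved by more than 1.5 times and 39 did not. The 1 member called higher with shRNA 1, TMED4, was lost (0) at an adjusted p below 0.01, without the filter on low genes and with a minimum log2 fold change of 0.5. With that minimum, members called in the libraries labelled shRNA 2 came to 3 lower and 0 higher, and genes of the lists to 11 lower and 7 higher with shRNA 1 and to 12 lower and 3 higher across the libraries labelled shRNA 2. The calls of TMED9 and TMED5 with shRNA 1 and of TMED10, TMED1 and TMED8 in the libraries labelled shRNA 2 held under every setting run. The difference of TMED3 between hairpins lost its call with independent SEs, at an adjusted p below 0.01 and when adjusted over all genes. Groups of 2 libraries limit precision to SEs of 0.09 to 0.17 on the log2 scale for the members.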
